A study of Mus musculus with 2 samples.

Results

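The genes described here are 9 genes that serve the entry, binding, storage and burning of fatty acids, chosen by name from the 19550 genes of the count matrix, and all 9 were found there. They are *Cd36*, *Lpl*, *Angptl4*, *Fabp3*, *Fabp4*, *Fabp5*, *Plin2*, *Cpt1a* and *Pdk4*, followed across cell classes and across birth, from embryonic day 19 (E19) to the newborn pup. The study profiled single cells of the mouse esophagus, of the gastroesophageal squamocolumnar junction (GE-SCJ) and of the stomach at embryonic day 15 (E15), at E19, in pups of day 2 and in adults of 8 weeks. Cells of each region and stage carried an oligonucleotide tag, were pooled and were counted as unique molecular identifiers (UMIs), and the class of each cell is the label that the authors deposited. All groups were of wild type C57BL/6 mice. By the labels 6 mice went into E15, 2 into E19, 2 into the pup and 3 into the adult samples, while the methods speak of 3 mice combined. Since mice were pooled within a tag, there are no replicates and no difference was tested. The adult stomach was not analysed here, so adult columnar values rest on 26 cells, 7 of the esophagus and 19 of the GE-SCJ.

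Of 7808 cells, 3695 came from E19 and 1573 from pups, with a median of 10424.5 UMIs per cell (519 to 79817). Levels are in CPM, the share that a gene took of all UMIs in a group, with exact 95% Poisson intervals in brackets. Such a sum does not separate more cells that use a gene from more RNA per cell, so shares of cells are given beside it. Log2 ratios are of pup over E19 with 1 UMI added to each sum, with an exact interval conditional on both counts. All intervals cover counting error only and not differences between cells or between mice. A gene with at least 50 UMIs over both stages was counted as measured in a class, and a difference of at least 2-fold as past the fold. Each of the 8 classes carried its own markers: at E19 the 6 columnar markers summed to 10517 CPM in columnar cells, the 6 squamous markers to 14289 CPM in squamous cells, the 6 fibroblast markers to 23723 CPM in fibroblasts and the 6 smooth muscle markers to 44289 CPM in smooth muscle cells. Fibroblast here is the label stromal of the authors, and a second, smaller stromal label was kept apart.

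Fatty acids reach a cell from lipoproteins, which lipoprotein lipase cleaves at the vessel wall, or as free acids that the receptor CD36 helps across the membrane. Inside, fatty acid binding proteins carry them, perilipins coat the droplets that store them, and carnitine palmitoyltransferase passes them to mitochondria. Around birth, a mammal changes from glucose supplied through the placenta to milk that is rich in fat. Pyruvate dehydrogenase kinase 4, made by *Pdk4*, holds back the use of glucose when fat is burned.

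In the columnar epithelium, 5 of the 9 genes were past the fold and all 5 were higher in pups, whereas 6.32% of the 12335 measured genes were that much higher and 11.6% that much lower. *Fabp3* was 12.1-fold, *Fabp4* 11.8-fold, *Cd36* 10.1-fold, *Pdk4* 8.24-fold and *Lpl* 4.98-fold higher, and none was past the fold in the other direction. In the other classes fewer genes were past the fold, but most of those classes also measured fewer of the 9. In immune cells 3 of 6 measured genes were higher and 1 was lower, beside 5.97% and 8.06% of all genes. *Pdk4* was past the fold upward in columnar, squamous, fibroblast and smooth muscle cells, and *Fabp5* was past the fold downward in endothelial, immune and second stromal cells. The median log2 ratio of the 9 genes in columnar cells was 2.32, beside -0.25 over all measured genes. The 9 genes were chosen with earlier results of these data known, so these contrasts with all genes are descriptions only. Of the 5 genes, *Fabp4* and *Pdk4* remained past the fold when columnar cells rich in genes of the acid pump or of hepatocytes were left out, and *Fabp3*, *Cd36* and *Lpl* did not. That step left out none of the 15 of 652 pup columnar cells that held 92.6% of the *Fabp4* UMIs.

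**Figure D1:**
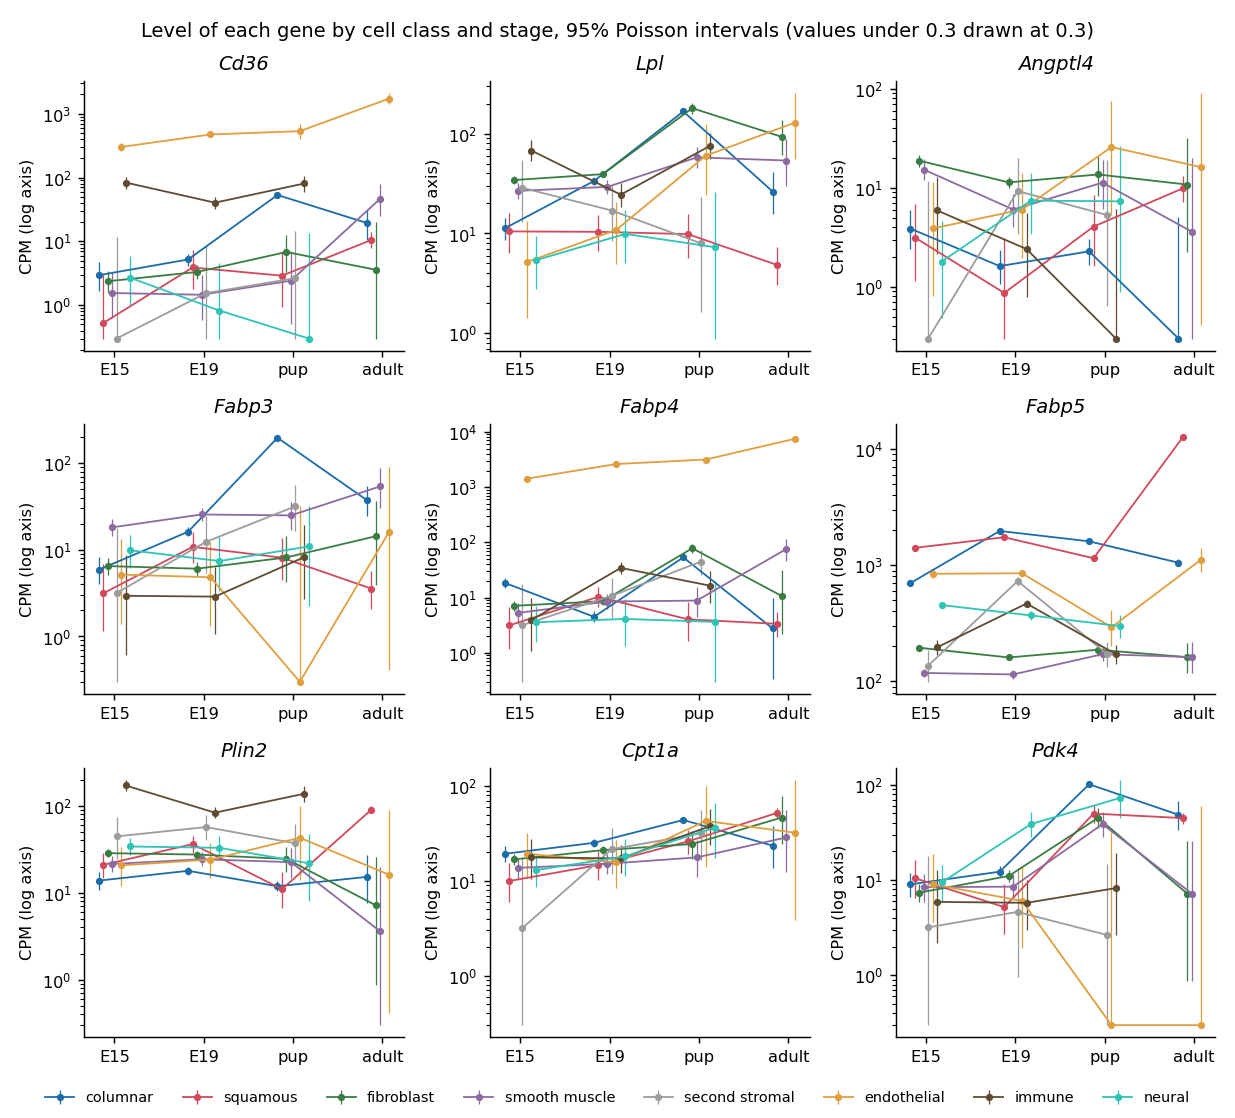
Level of each gene in CPM on a log axis against stage, with 1 line per cell class of at least 20 cells and 95% Poisson intervals. Values under 0.3 are drawn at 0.3. Endothelial cells lie above all other classes for *Fabp4* and *Cd36* at every stage, and the columnar line peaks in the pup for *Cd36*, *Fabp3* and *Pdk4*. The adult columnar points rest on 26 cells, none of them from the stomach.

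**Figure D2:**
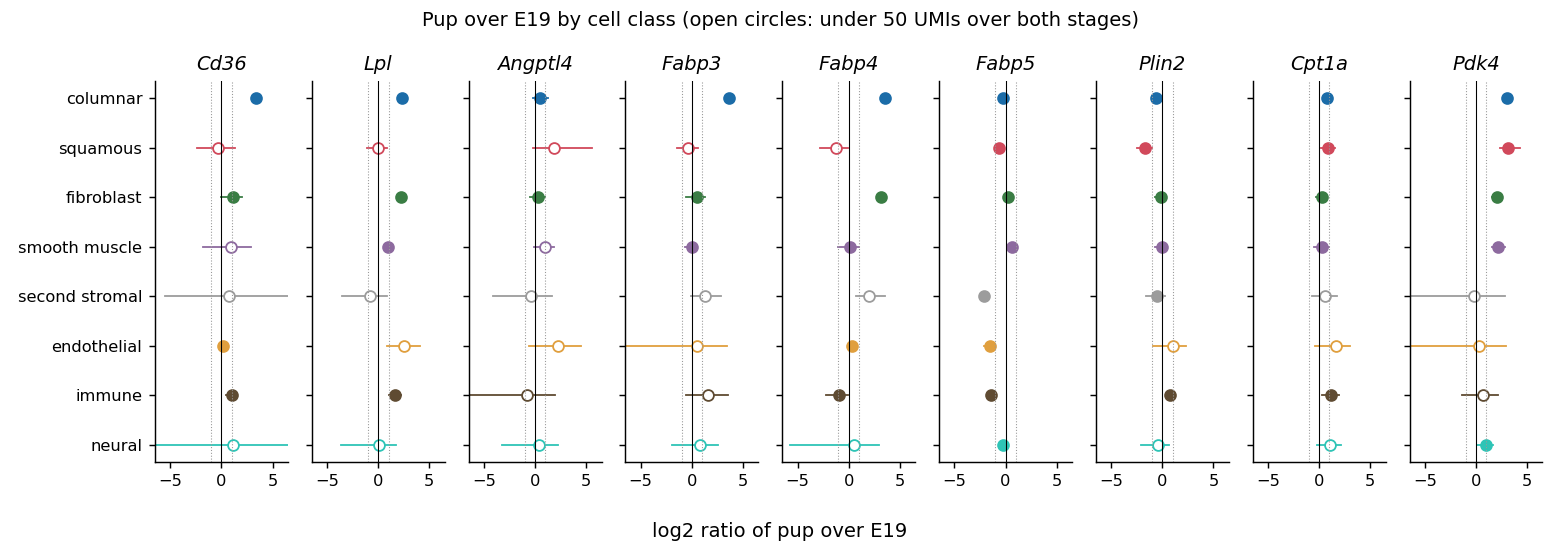
Log2 ratio of pup over E19 for each gene (panels) in each of 8 cell classes, with exact 95% intervals cut at 6.5. Dotted lines mark the 2-fold threshold and open circles a gene under 50 UMIs. *Pdk4* lies right of the upper line in columnar, squamous, fibroblast and smooth muscle cells, and *Fabp5* lies left of the lower line in second stromal, endothelial and immune cells.

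Start-site sequence from RefSeq (GRCm38.p6) was found for 5 of the 9 genes, *Cd36*, *Cpt1a*, *Fabp3*, *Pdk4* and *Plin2*. The 250 bases before the RefSeq start of *Fabp3*, *Cd36* and *Pdk4* are shown, the 3 of them that were past the fold upward in columnar cells as a whole. Capitals mark AGGTCA, the core hexamer bound by nuclear receptors such as the PPARs, and CCAAT, each on either strand. The windows are chr4:130308488-130308737 on the plus strand for *Fabp3*, chr5:17835897-17836146 on the minus strand for *Cd36* and chr6:5496279-5496528 on the minus strand for *Pdk4*. These RefSeq starts differ from the outer ends of the GENCODE genes given below. The *Cd36* window lies inside the GENCODE gene, and the *Fabp3* and *Pdk4* windows overlap the start of theirs.
Fabp3: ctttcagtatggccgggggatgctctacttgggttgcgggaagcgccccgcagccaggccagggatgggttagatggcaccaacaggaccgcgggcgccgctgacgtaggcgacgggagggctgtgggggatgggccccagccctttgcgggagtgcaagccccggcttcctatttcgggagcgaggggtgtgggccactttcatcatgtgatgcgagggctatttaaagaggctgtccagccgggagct
Cd36: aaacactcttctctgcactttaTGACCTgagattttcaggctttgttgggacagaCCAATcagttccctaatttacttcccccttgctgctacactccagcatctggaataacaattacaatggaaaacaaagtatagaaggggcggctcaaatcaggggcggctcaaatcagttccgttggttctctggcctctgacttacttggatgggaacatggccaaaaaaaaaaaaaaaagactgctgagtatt
Pdk4: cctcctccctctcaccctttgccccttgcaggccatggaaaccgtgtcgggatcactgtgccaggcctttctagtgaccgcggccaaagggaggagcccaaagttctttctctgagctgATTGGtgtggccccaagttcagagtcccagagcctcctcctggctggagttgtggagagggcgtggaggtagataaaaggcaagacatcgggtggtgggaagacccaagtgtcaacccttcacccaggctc
The *Cd36* window held 1 AGGTCA and 1 CCAAT, the *Pdk4* window 1 CCAAT, and the *Fabp3* window neither. AGGTCA stood in 14.0% and CCAAT in 33.8% of 32851 windows of the same length. The full PPAR element DR1 (0.0335% of windows), the forkhead motif GTAAACA (3.17%), the palindromic glucocorticoid response element (0.00913%) and TATAAA (12.4%) were searched on both strands and matched none of the 5 windows of these genes. *Plin2* and *Cpt1a* each held 1 AGGTCA and 1 CCAAT. These are matches of letters and not known sites.

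*Cd36* (chr5:17781690-17888801, minus strand, GRCm38) encodes the scavenger receptor that takes up long-chain fatty acids. In columnar cells it was at 2.95 CPM at E15, 5.20 (4.18 to 6.39) at E19, 53.3 (50.1 to 56.6) in pups and 19.4 in adults. The pup was the highest stage and its interval did not meet that of any other stage. The pup and adult values are of unlike regions: 351 of 652 pup columnar cells were of the stomach, and none of the 26 adult ones was. The rise from E19 to the pup was present in both regions with enough columnar cells, from 4.89 to 41.5 CPM in the GE-SCJ and from 4.61 to 60.5 CPM in the stomach. Columnar cells in which 5 genes of acid secretion took at least 0.5% of the UMIs, called acid pump cells here, went from 5.61% to 22.9% of the class. In adults they were 2 of 26 cells. Without acid pump cells and the few cells rich in hepatocyte genes, the log2 ratio of *Cd36* from E19 to the pup was 0.01 (-0.55 to 0.56). Endothelial cells held far more *Cd36*, at 301, 473, 533 and 1728 CPM at E15, E19, pup and adult. The endothelial values of E19 and pup did not differ beyond counting error, with a log2 ratio of 0.19 (-0.24 to 0.56). Immune cells came next, at 40.4 CPM at E19 and 80.7 CPM in pups, a log2 ratio of 1.01 on 84 and 49 UMIs. In fibroblasts *Cd36* was low, at 3.31 CPM at E19 and 6.81 CPM in pups. The fibroblast ratio of 1.15 rested on 10 pup UMIs, its interval (-0.09 to 2.01) held 0, and without the highest cell of each stage it was 0.80. In columnar cells 9.55% at E19 and 26.4% in pups had a UMI of *Cd36*, and 2.22% and 13.9% after the 631 and 633 cells with at least 5000 UMIs were thinned to that number. Neural cells, which stand here for background, had 0.69% and 0%, on 1 and 0 UMIs, at median depths of 7410 and 4331 UMIs, against 24432 and 26581 in columnar cells.

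*Lpl* (chr8:68880491-68907448, plus strand) encodes lipoprotein lipase, which frees fatty acids from circulating triglycerides. Columnar cells had 11.2, 33.6, 167 and 26.3 CPM at E15, E19, pup and adult, and the pup value was 4.98-fold that of E19, or 1.86-fold without the cells rich in acid pump or hepatocyte genes. Fibroblasts had 34.3, 39.4, 181 and 93.3 CPM at the same stages, so their pup level was 4.598-fold that of E19. In pups the columnar and fibroblast intervals (162 to 173 and 159 to 204 CPM) overlapped, and both lay above those of every other class. By region, fibroblast *Lpl* rose from 25.2 to 233 CPM in the esophagus, from 59.8 to 122 CPM in the GE-SCJ and from 36.6 to 159 CPM in the stomach. The esophageal log2 ratio of 3.21 (2.88 to 3.53) was above that of the GE-SCJ, 1.05 (0.56 to 1.47), with intervals that did not meet. Of the pup fibroblast UMIs of *Lpl*, 65.7% lay in 31 of 311 cells, 16 of them in the esophagus. *Ccl2* and the mucin gene *Muc5b* led what else those cells held, and their part in the values by region was not tested. Smooth muscle cells went from 29.3 to 57.9 CPM, a log2 ratio of 0.99 (0.55 to 1.403), just short of the fold. Within smooth muscle the stomach was past the fold (25.9 to 82.4 CPM) and the GE-SCJ was not (31.8 to 40.4 CPM). Squamous *Lpl* was 10.4 CPM at E19 and 9.85 CPM in pups, on 24 and 17 UMIs.

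*Angptl4* (chr17:33773750-33781830, minus strand) encodes a secreted inhibitor of lipoprotein lipase that is known to respond to fasting. It was scarce, with 1.62 CPM at E19 and 2.28 CPM in pups in columnar cells, and it was past the fold in no class as a whole. Of the 45 pup columnar UMIs, 13 came from 5 cells that carried hepatocyte genes. Fibroblasts held 11.3 CPM at E19 and 13.6 CPM in pups, with a log2 ratio of 0.33 (-0.48 to 0.93). In the fibroblasts of the stomach alone it fell from 11.9 to 2.24 CPM, on 79 UMIs against 1, and the interval of that ratio (-7.74 to 0.10) held 0.

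*Fabp3* (chr4:130308595-130315463, plus strand), the heart-type fatty acid binding protein, had the largest ratio of the 9 genes in columnar cells. Its level there was 5.89, 16.2, 196 and 37.4 CPM at E15, E19, pup and adult. It rose from 14.5 to 139 CPM in the GE-SCJ and from 9.11 to 237 CPM in the stomach, and the log2 ratio of the stomach, 4.69 (4.40 to 5.03), was above that of the GE-SCJ, 3.25 (2.97 to 3.56). Its ratio ranked 69 from the top among the 12335 measured genes of columnar cells. *Fabp3* had a UMI in 12.3% of columnar cells at E19 and in 27.0% of those of pups. In immune cells, which stand here for background, 3.33% and 5.81% had a UMI at median depths of 8891.5 and 5935 UMIs, against 24432 and 26581 in columnar cells. Thinned to 5000 UMIs, with shallower cells left out, the shares were 3.33% of 631 and 17.7% of 633 columnar cells and 0.794% of 126 and 6.90% of 58 immune cells. Without the cells rich in acid pump or hepatocyte genes, the columnar log2 ratio was -0.70 (-1.23 to -0.22). Smooth muscle cells stood above columnar cells at E19, with 25.6 CPM, and were at 24.9 CPM in pups. Esophageal cells with the smooth muscle label had the highest level of the 3 regions, at 90.8 CPM at E19 and 78.5 CPM in pups, on 42 and 22 cells.

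*Fabp4* (chr3:10204088-10208576, minus strand), the adipocyte-type binding protein that endothelial cells also make, was an endothelial gene at all stages, at 1426, 2620, 3163 and 7510 CPM from E15 to adult. The endothelial log2 ratio of pup over E19 was 0.27 (0.11 to 0.43), not past the fold, on 69 cells of E19 and 21 of the pup. Outside the endothelium *Fabp4* was past the fold in columnar cells and fibroblasts. Columnar cells went from 4.50 to 53.6 CPM, after 18.6 CPM at E15, and were at 2.77 CPM in adults. The 6 endothelial markers together went from 27.1 to 10.5 CPM in columnar cells, with none of the 6 at 0. *Egfl7* alone went from 19.9 to 6.18 CPM there. Fibroblasts went from 8.65 to 78.3 CPM, a 9.08-fold rise, and the 6 endothelial markers there went from 16.3 to 27.2 CPM, with none at 0. Of these, *Kdr* went from 2.64 to 13.6 CPM on 51 and 20 UMIs, and *Cdh5* from 2.74 to 4.09 CPM. *Pecam1* (1.76 to 1.36 CPM) and *Egfl7* (7.97 to 6.81 CPM) were lower, and *Emcn* and *Cldn5* stayed under 1 CPM. The part of the endothelial markers in the *Fabp4* values was not tested. The fibroblast rise was present in the esophagus (4.73 to 84.4 CPM), the GE-SCJ (12.4 to 119 CPM) and the stomach (9.53 to 33.6 CPM). Of the pup fibroblast UMIs of *Fabp4*, 77.4% lay in 15 of 311 cells, and hemoglobin genes and the mucin gene *Muc5b* led what else those cells held. The 6 columnar markers together went from 804 to 1917 CPM in fibroblasts, and the part of such RNA in the fibroblast values of *Fabp4* and *Lpl* was not tested. The 5 adipocyte markers of the matrix summed to 3.24 CPM in pup columnar cells and to 2.04 CPM in pup fibroblasts, with 3 of the 5 at 0 in each. *Fabp4* had a UMI in 4.98% of E19 fibroblasts and 11.3% of pup fibroblasts, at median depths of 9110.5 and 4258 UMIs. Neural cells, which stand for background, had 3.45% and 1.69% at 7410 and 4331 UMIs. Thinned to 5000 UMIs, the fibroblast shares were 2.84% of 1834 and 12.7% of 110 cells. These are other sets of cells than the unthinned shares, since 194 fibroblasts of E19 and 201 of the pup had fewer UMIs and were left out.

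*Fabp5* (chr3:10012548-10016607, plus strand), the epidermal-type binding protein, was present in almost every columnar cell and moved downward in the classes where it was past the fold. Columnar cells held 1973 CPM at E19 and 1606 CPM in pups, and 98.6% and 99.1% of them had a UMI. Endothelial cells fell from 853 to 292 CPM and second stromal cells from 730 to 172 CPM. Immune cells fell from 468 to 171 CPM, but 543 of the 974 UMIs at E19 came from a single cell, and without the highest cell of each stage the log2 ratio was -0.43 in place of -1.44. In all, 7 of the 180 immune cells of E19 held 68.1% of the UMIs, and *Mt4*, *Lgals7* and *Krt1* led what else they held. The part of such RNA in the immune value was not tested. In the second stromal cells of E19, 83.9% of the UMIs lay in 17 of 60 cells, and hemoglobin genes led those cells. The 5 erythroid markers went from 5490 to 318 CPM in second stromal cells, from 8803 to 1667 CPM in endothelial cells and from 8477 to 542 CPM in immune cells, and their part in the *Fabp5* values was not tested.

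Squamous *Fabp5* depended on the region. It was 1742 CPM at E19, 1149 CPM in pups and 12714 CPM in adults. In the esophagus it fell from 1666 CPM at E19 to 197 (170 to 227) CPM in pups and then stood at 8594 CPM in adults. In the GE-SCJ it was 1989 CPM at E19, 2004 CPM in pups and 21232 CPM in adults. The esophageal log2 ratio of -3.07 (-3.30 to -2.87) and that of the GE-SCJ, 0.01 (-0.11 to 0.13), lay far apart. Part of the esophageal pup cells, 29 of 85, carried the second squamous label, with 52.3 CPM of *Fabp5*. In the first squamous label alone, the esophagus still went from 1717 to 299.5 CPM. Of all pup squamous UMIs of *Fabp5*, 80.3% lay in 10 of 138 cells, 7 of them in the GE-SCJ. *Mt4*, *Krt1* and *Sprr3* led what else those 10 cells held. At E19, 51.3% lay in 13 of 161 cells, 9 of them in the esophagus, with up to 685 UMIs in a cell. *Chil4* and *Mt4* led those E19 cells, and *Pf4*, *Mrc1* and the immune marker *Tyrobp* were also among their leading genes. The part of these few cells in the ratios by region was not tested. The 6 squamous markers together went from 14289 to 7462 CPM in the squamous class, with none at 0 at either stage. *Krt13* (7852 to 3639 CPM) and *Krt15* (4986 to 1894 CPM) fell, and *Krt5* went from 997 to 956 CPM. *Trp63* (152 to 228 CPM), *Krt14* (157 to 421 CPM) and *Col17a1* (144 to 323 CPM) rose. The part of these markers in the *Fabp5* and *Plin2* values was not tested.

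*Plin2* (chr4:86648386-86670060, minus strand) encodes perilipin 2, a coat protein of lipid droplets. It was highest in immune cells, at 172, 83.6 and 138 CPM at E15, E19 and pup, with a log2 ratio of 0.73 (0.33 to 1.11). In squamous cells it fell from 36.4 (29.0 to 45.0) to 11.01 (6.63 to 17.2) CPM, 3.17-fold, and was 90.5 CPM in adults. Of the 9 genes 4 were measured in squamous cells and 1, *Plin2*, was past the fold downward, where 8.46% of 7603 genes were. The fall lay in the esophagus, from 42.7 to 6.17 CPM, while the GE-SCJ went from 20.4 to 13.4 CPM on 11 and 9 UMIs. In columnar cells it went from 17.9 to 11.9 CPM, a log2 ratio of -0.59 that did not reach the fold.

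*Cpt1a* (chr19:3322334-3385733, plus strand) encodes the outer-membrane carnitine palmitoyltransferase that admits long-chain fatty acids to mitochondria. Its E19 level lay in a narrow band across the 8 classes, between 14.7 CPM in squamous and 25.2 CPM in columnar cells. In pups it was 43.99 (41.1 to 47.0) CPM in columnar cells, 1.74-fold that of E19, and 26.1 (19.02 to 34.9) CPM in squamous cells, 1.76-fold. Both intervals of the log2 ratio lay above 0 (0.63 to 0.97 and 0.15 to 1.51), with neither ratio past the fold. In immune cells it went from 17.3 to 37.9 CPM, past the fold on 36 and 23 UMIs. Fibroblasts and smooth muscle cells had log2 ratios of 0.25 and 0.27, with intervals that held 0. In adult squamous cells it stood at 52.3 CPM.

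*Pdk4* (chr6:5483351-5496309, minus strand) was past the fold upward in 4 classes, more than any other of the 9. Its level went from 12.2 to 101 CPM in columnar cells, from 5.19 to 49.8 CPM in squamous cells, from 11.03 to 45.0 CPM in fibroblasts and from 8.52 to 38.6 CPM in smooth muscle cells. The log2 ratios were 3.04 (2.84 to 3.26), 3.16 (2.38 to 4.27), 2.04 (1.61 to 2.43) and 2.18 (1.55 to 2.82) in that order. The shares of all measured genes that were past the fold upward were 4.97% in squamous, 9.26% in fibroblast and 11.3% in smooth muscle cells. The log2 ratio was above 0 in each region with at least 20 cells at both stages in these 4 classes, with 3 UMIs at each stage in esophageal smooth muscle. In columnar cells it was 11.4 to 96.2 CPM in the GE-SCJ and 12.2 to 106 CPM in the stomach, and in squamous cells 6.44 to 25.7 CPM in the esophagus and 1.86 to 85.1 CPM in the GE-SCJ, the last on 1 UMI at E19. In adults it was 48.5 CPM in columnar and 44.7 CPM in squamous cells, with 7.17 CPM on 2 UMIs in fibroblasts. Endothelial and second stromal cells had 5 and 3 UMIs at E19 and 0 and 1 in pups, too few for a ratio. In columnar cells 20.5% of E19 and 67.3% of pup cells had a UMI of *Pdk4*. Immune cells, a class with a low share, had 5.56% and 5.81% at median depths of 8891.5 and 5935 UMIs. Thinned to 5000 UMIs, with shallower cells left out, the columnar shares were 5.07% of 631 and 35.1% of 633 cells, and the immune ones 2.38% of 126 and 3.45% of 58. Neural cells held 38.7 CPM at E19 and 72.9 CPM in pups, and without the highest cell of each stage the log2 ratio was 1.80 in place of 0.95.

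The 5 genes that rose in columnar cells did not all lie in the same cells. A set of 5 genes of acid secretion (*Atp4a*, *Atp4b*, *Slc26a7*, *Kcnq1*, *Kcne2*), known from parietal cells and chosen after the values were seen, took at least 0.5% of the UMIs in 37 of 660 columnar cells at E19 and in 149 of 652 in pups, which is 5.61% (3.98 to 7.64) and 22.9% (19.7 to 26.3). The cut is a range on a score and not a cell type: 16 and 22 cells lay within a factor of 2 of it. These acid pump cells held 98.6% of the pup columnar UMIs of *Fabp3*, 94.96% of those of *Cd36*, 72.5% of those of *Lpl*, 23.4% of those of *Pdk4* and 1.89% of those of *Fabp4*. All 90 pup columnar cells with at least 10 UMIs of *Fabp3* and all 87 with at least 5 UMIs of *Cd36* were acid pump cells, and 71 cells were in both groups. Of the 112 with at least 10 UMIs of *Lpl*, 72 were also in the *Fabp3* group and 69 in the *Cd36* group.

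In the other columnar cells, also without 2 cells of E19 and 5 of the pup that were high in hepatocyte genes, *Fabp3* was 5.98 CPM at E19 and 3.64 CPM in pups, and *Cd36* was 3.71 CPM at both stages. Neither had risen there, with log2 ratios of -0.70 (-1.23 to -0.22) and 0.01 (-0.55 to 0.56). *Lpl* went from 28.6 to 53.3 CPM in the other cells, 1.86-fold. *Pdk4* went from 11.5 to 107 CPM, 9.20-fold, and *Fabp4* from 2.87 to 72.7 CPM. Within the acid pump cells, *Fabp3* was 326 CPM at E19 and 711 CPM in pups, *Cd36* 49.9 and 186 CPM, *Lpl* 171 and 446 CPM, and *Pdk4* 32.6 and 86.9 CPM. *Fabp4* went the other way in them, from 55.6 to 3.72 CPM, a log2 ratio of -3.88 (-4.80 to -3.03) on 29 and 20 UMIs, 24 of the 29 from 2 cells. The *Fabp3* ratio there differed by region, 14.3-fold in the stomach on 10 UMIs at E19 and 2.36-fold in the GE-SCJ on 73. The E19 values of that group rest on 36 cells (1 of the 37 was also high in hepatocyte genes) with a median of 5917 UMIs, against 36615 in the 149 pup cells, and 130 of its 170 UMIs of *Fabp3* came from 2 cells. The median acid pump cell had 0 UMIs of *Fabp3* at E19 and 20 in pups, at these unlike depths. The count of acid pump cells and the summed CPM within them both differed between the stages, and their shares in the columnar rise were not tested.

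**Figure D3:**
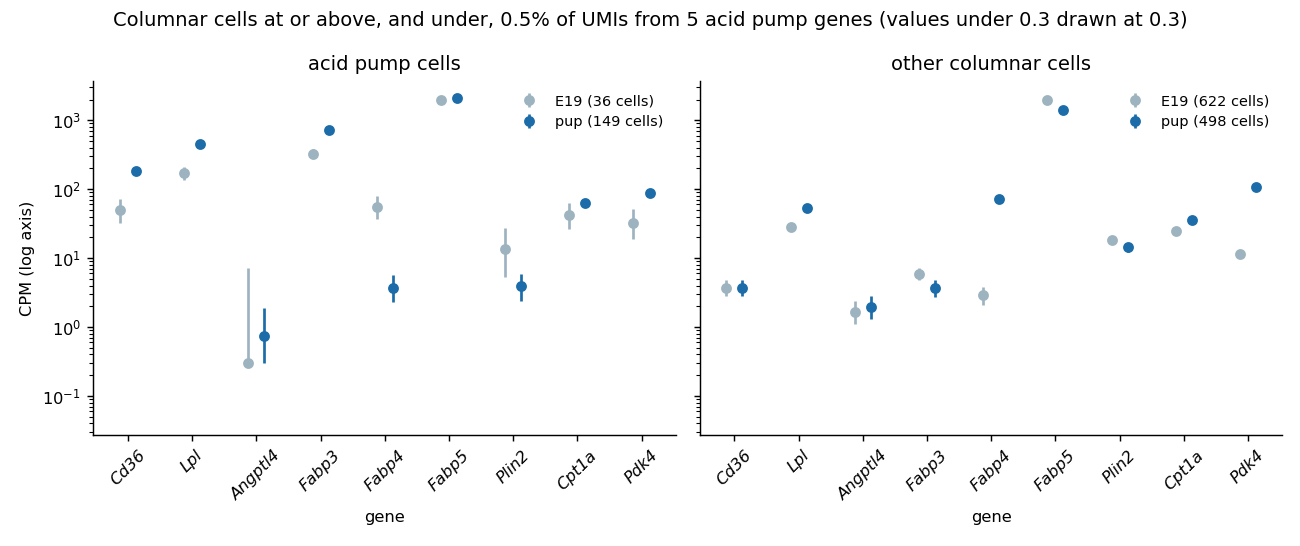
CPM on a log axis of each gene at E19 and in pups, in columnar cells at or above 0.5% of UMIs from 5 acid pump genes (left) and under it (right), with 95% Poisson intervals. Values under 0.3 are drawn at 0.3. *Cd36* and *Fabp3* are higher on the left at both stages, and on the right *Fabp4* and *Pdk4* stand above E19 in pups.

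*Fabp4* lay elsewhere. In pup columnar cells 15 cells with at least 5 UMIs held 92.6% of its UMIs, up to 200 UMIs in a cell, and none of the 15 was an acid pump cell. Genes of gastric pit cells (*Gkn1*, *Gkn2*, *Tff1*, *Muc5ac*) summed to 232202 CPM in those 15 cells and to 11230 CPM in the rest. The leading genes were *Spink1*, *Ly6m* and *Psapl1*. The cells came from the GE-SCJ (7) and the stomach (8), and their median depth of 23027 UMIs was close to the 26583 of the rest. *Lpl* was spread wider than *Fabp3*: 112 pup columnar cells with at least 10 UMIs held 74.9% of its UMIs, of which 97 were acid pump cells and 4 carried at least 0.5% of UMIs from hepatocyte genes such as *Alb* and *Ahsg*. Without the 5 such cells of the pup and the 2 of E19, columnar *Lpl* was 32.9 and 161 CPM. The cells richest in *Fabp3* had a median of 38101.5 UMIs and the rest 23663.5. No doublets were removed beyond the filter of the authors, and their part was not tested.

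**Figure D4:**
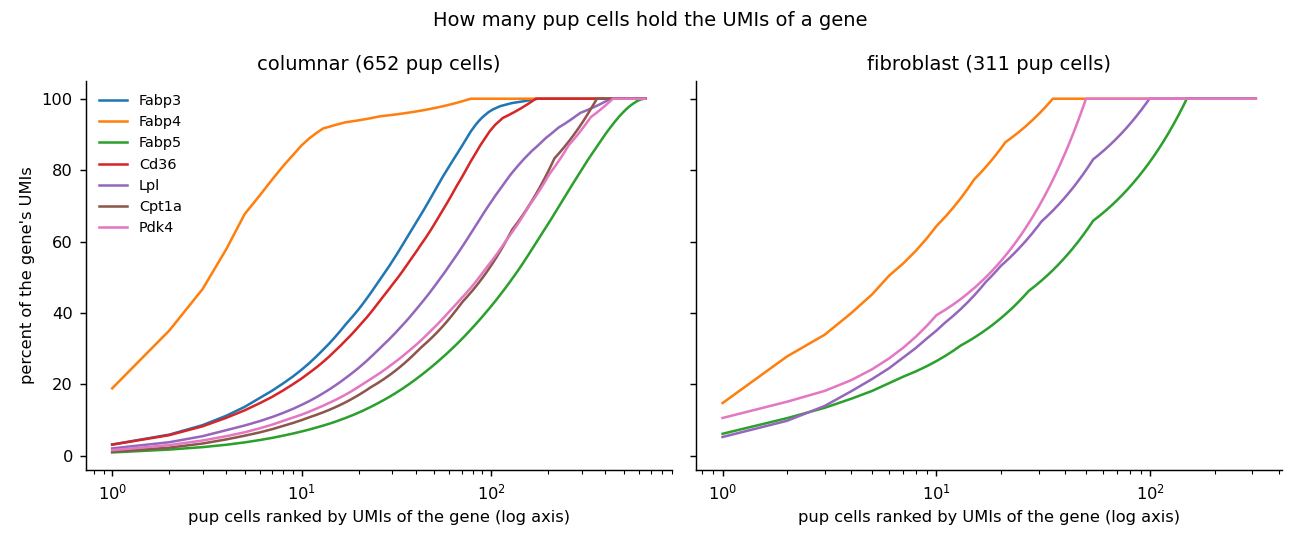
Cumulative percent of the pup UMIs of a gene against the number of cells, ranked by their UMIs of that gene on a log axis, in columnar cells (left) and in fibroblasts for the genes with at least 50 pup UMIs (right). In columnar cells 4 cells hold 50% of the *Fabp4* UMIs, 27 those of *Fabp3*, 33 those of *Cd36*, 55 those of *Lpl*, 87 those of *Pdk4* and 131 those of *Fabp5*.

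In fibroblasts 4 of 9 measured genes were past the fold upward, *Fabp4*, *Lpl*, *Pdk4* and *Cd36*, beside 9.26% of all genes, and none downward, beside 9.99%. In smooth muscle cells 1 of 7 was past the fold upward (*Pdk4*), beside 11.3% of all genes, and none downward, beside 9.34%. The median depth of a cell in these classes was lower in pups than at E19, 4258 against 9110.5 UMIs in fibroblasts and 4595 against 11464 in smooth muscle cells. Markers also shifted within the smooth muscle class, where *Actg2* went from 10686 to 3334 CPM and *Acta2* from 14493 to 9256 CPM. The pericyte marker *Rgs5* went from 63.0 to 1090 CPM there. Of the fibroblast markers, *Dcn* went from 176 to 963 CPM and *Postn* from 78.4 to 500 CPM. The pericyte marker *Cspg4* and the fibroblast marker *Lum* were lower. The part of these markers in the smooth muscle values of *Pdk4* and *Lpl* was not tested. Immediate early genes, known to respond to cell dissociation, were past the fold upward for 6 of 8 in fibroblasts and 8 of 8 in smooth muscle cells, against 2 of 8 in squamous and 0 of 8 in columnar cells. Upward calls also lay in classes outside these 4, since *Ier3* was past the fold upward in 7 of 8 classes. *Fos* and *Junb* were so in 4 of 8, and *Fosb* and *Egr1* in 2 of 8. The part of the immediate early genes in the stromal values was not tested. In immune cells 3 of 6 were past the fold upward (5.97% of all genes), *Lpl*, *Cpt1a* and *Cd36*, and *Fabp5* downward (8.06%). *Lpl* and *Cpt1a* rested on 46 and 23 pup UMIs there, and with cells thinned to 2000 UMIs the immune log2 ratio of *Lpl* was -0.54 in place of 1.63. In endothelial cells 1 of 3 and in second stromal cells 1 of 2 was past the fold downward (12.5% and 7.01% of all genes) and none upward (10.9% and 7.39%). In neural cells 0 of 2 was past the fold in either direction (7.67% of all genes upward and 8.88% downward).

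Other genes of lipid handling, in 8 lists without the 9, went both ways. Summed over the 8 classes, 53 of 439 measured differences of these genes were past the fold upward (12.1%, beside 7.91% of the 60400 of all genes) and 37 downward (8.43%, beside 9.69%). The beta-oxidation list had 1 of 19 past the fold in columnar cells and in fibroblasts, beside 6.32% and 9.26% of all genes upward. Downward the shares of all genes were 11.6% and 9.99%. The gene was *Acsl1* in both, which activates long-chain fatty acids and was up in 3 of 5 classes. Other genes of that list were down in some classes: *Eci1* in 2 of 7, *Eci2* in 1 of 7, *Hadh* in 1 of 8 and *Slc25a20* in 1 of 4. *Acaa2* was up in 1 of 7 and down in 1 of 7. *Pnpla2*, the lipase that opens stored triglyceride, was up in 4 of 5 classes and *Slc27a1*, a fatty acid transporter, in 4 of 6. *Lrp1*, a lipoprotein receptor, was up in 4 of 7 and down in columnar cells. The synthesis list had 1 of 10 up and 5 of 10 down in columnar cells, beside 6.32% and 11.6% of all genes. In squamous cells 4 of 8 were down, beside 8.46%. *Scd2*, a desaturase, fell from 552 to 77.0 CPM in columnar cells, and *Fasn* (fatty acid synthase) and *Elovl6* (an elongase) were each down in 3 of 6 classes, as was *Scd2* in 3 of 8. *Pdk1*, another pyruvate dehydrogenase kinase, had the largest median log2 ratio in size of the glucose switch list, -0.66, and was past the fold in none of the 5 classes where it was measured. *Ehhadh*, an enzyme of peroxisomal oxidation, was measured in columnar cells, where it went from 5.89 to 15.7 CPM. *Fabp2*, *Plin5* and *Nr1h3* also had the largest median of their lists, but that median rests on classes with few or no UMIs and is not given. *Fabp2* was measured in columnar cells, with a log2 ratio of -0.33 (-0.76 to 0.10), and *Plin5* and *Nr1h3* in no class.

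The list of glucocorticoid and FOXO genes holds the receptor gene *Nr3c1*, *Foxo1* and *Foxo3*, and genes known to respond to these factors. *Pdk4* is also known to respond to them, and their part in its values was not tested. The list had 7 of 11 genes past the fold upward in columnar and 6 of 10 in squamous cells, beside 6.32% and 4.97% of all genes. In fibroblasts it had 10 of 11 and in smooth muscle cells 9 of 11, beside 9.26% and 11.3%. None was downward in any of the 8 classes. *Nr3c1* was past the fold upward in 0 of 8 classes, *Foxo1* in 1 of 7 and *Foxo3* in 3 of 6. *Tsc22d3* was up in 8 of 8 classes, *Klf9* in 7 of 7, *Fkbp5* in 7 of 8 and *Zbtb16* in 4 of 4. In columnar cells *Fkbp5* went from 14.4 to 143 CPM and *Klf15* from 2.66 to 29.1 CPM. The median log2 ratio of the list was 1.31 in columnar, 1.33 in squamous, 2.17 in fibroblast and 2.70 in smooth muscle cells, beside -0.25, -0.29, -0.02 and 0.06 over all genes measured there.

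**Figure D5:**
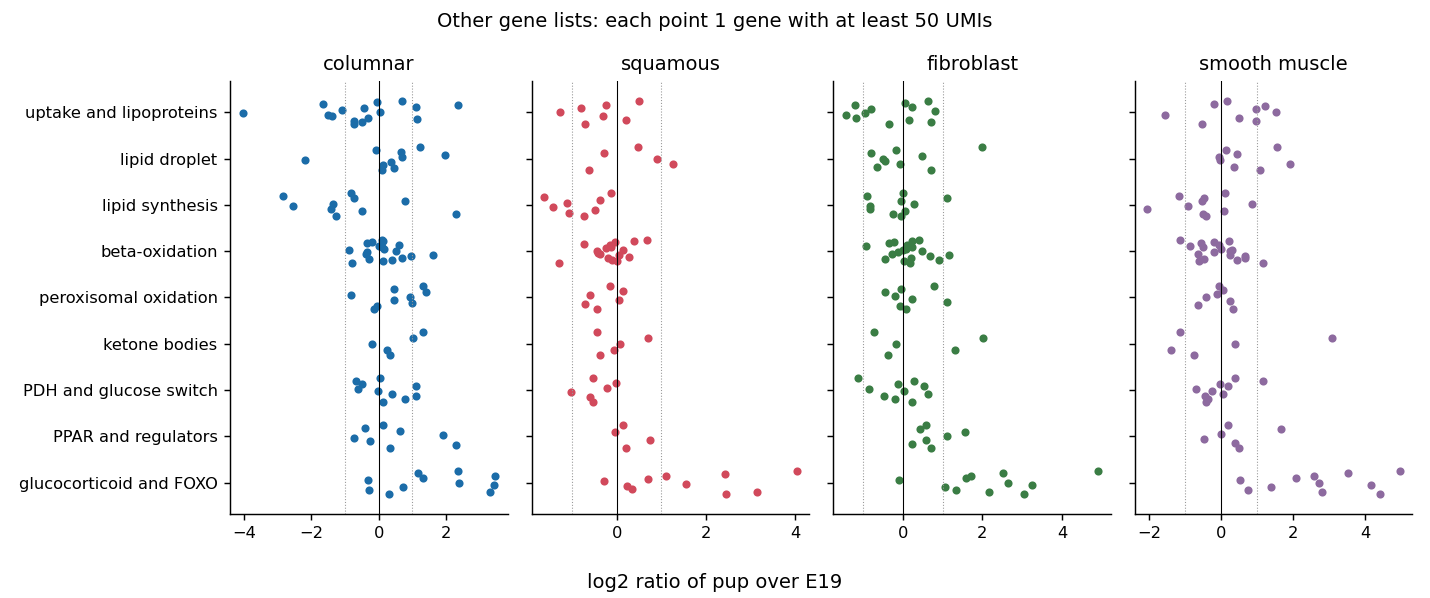
Log2 ratio of pup over E19 of the genes of 9 other lists (rows) in 4 cell classes (panels), each point a gene with at least 50 UMIs. Dotted lines mark the 2-fold threshold. In the bottom row, of glucocorticoid and FOXO genes, most points lie right of the upper line, while beta-oxidation genes lie near 0.

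Over 54 groups of class, region and stage with at least 20 cells, the genes most like each of the 9 by Pearson's r of log2(CPM + 10) were searched among 11672 genes. The groups share libraries and depth, so these values describe the groups only. The likeness depends on the measure: 10 of the 27 genes named were also among the 3 nearest by Spearman's rho, which ran from 0.19 (*Gpihbp1* with *Fabp4*) to 0.79 (*Mia3* with *Lpl*). For *Fabp4* they were *Emcn* (0.83), *Flt1* (0.81) and *Gpihbp1* (0.81), and for *Cd36* *Hhex* (0.84), *Fli1* (0.83) and *Cd93* (0.82). For *Fabp3* they were *Cox4i1* (0.74), *Ndufa6* (0.74) and *Atp4b* (0.73), and for *Lpl* *Mia3* (0.77), *Man1a* (0.71) and *Lgals3bp* (0.70). *Fabp5* was nearest *Gpx2* (0.86), *Fam83b* (0.84) and *Elovl7* (0.84), and *Plin2* nearest *Atp6v0c* (0.85), *Fermt3* (0.84) and *Cln8* (0.83). *Pdk4* was nearest *Aldh6a1* (0.69), *Acot1* (0.68) and *Cyp2b10* (0.65), *Angptl4* nearest *Mcc*, *Mn1* and *Hic1* (0.67, 0.67 and 0.66), and *Cpt1a* nearest *Tmem56*, *Htatip2* and *Pcx* (0.60, 0.59 and 0.59). Among the 9 themselves, the highest r was 0.63, between *Fabp4* and *Cd36*, and the lowest -0.33, between *Fabp5* and *Lpl*.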

How the data were processed

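The authors counted UMIs of tagged 10x Genomics libraries with Cell Ranger 6.1.1 on mm10, the same assembly as GRCm38, removed barcodes by their genes, UMIs and mitochondrial share, and named classes by clustering. They deposited raw counts without normalization, with the tag, class label and mitochondrial percent of each cell (at most 19.7). No barcode occurred more than once. For all 7808 cells the tag and the UMI total were the same in the deposited tables. The total count per stage was 27587275 (E15), 48520366 (E19), 25563448 (pup) and 6194066 (adult) UMIs.

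UMIs were summed per class, region and stage and scaled to CPM. The squamous class joins 2 labels. Groups of under 20 cells were left out of ratios by region, and a sum of 0 corresponds to fewer than 3 counts. The 9 genes and the lists were chosen with earlier results of these data known, and the acid pump, hepatocyte and pit genes after the values were seen. Named genes are the 9, other lipid genes past the fold in 1 direction in at least 3 classes, the gene of each list with the largest median ratio in size, and the 3 genes most alike to each of the 9. Positions are from GENCODE on GRCm38 and start sequences from RefSeq. The ratio was tested on simulated data. Alternatives are given in the closing section. Those without acid pump cells, without hepatocyte gene cells, without both and without the 1 highest cell per stage were added after the data were seen. The tools were pandas 2.3.3, scipy 1.17.1 and numpy 2.4.6 in Python 3.11.15, with figures by matplotlib 3.10.9. The values of some genes of the other lists that the rule names are not reported here.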

Additional observations from a re-analysis of the deposited data

Results flagged for a closer look

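*Fabp3* was marked because its direction differed between 2 epithelial classes in every region with enough cells. In columnar cells the lowest regional log2 ratio of pup over E19 was 3.25 (GE-SCJ, with 4.69 in the stomach). In squamous cells the highest was -1.19 (esophagus, 7 UMIs at E19 and 1 in pups, with -2.98 in the GE-SCJ on 18 and 2 UMIs). In the first squamous label alone *Fabp3* was also lower in pups in these regions. It went there from 4.22 to 1.75 CPM in the esophagus (7 and 1 UMIs) and from 6.38 to 3.05 CPM in the GE-SCJ (3 and 2 UMIs). Over all regions of that label, which include 7 pup cells of the stomach, *Fabp3* went the other way, from 4.598 CPM (10 UMIs) to 10.7 CPM (14 UMIs). The difference between the classes was not tested, and the squamous values rest on few UMIs: with all regions summed, which includes 7 pup cells of the stomach, the squamous log2 ratio was -0.37 (-1.47 to 0.58).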

How the results depend on the processing

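Of 18 log2 ratios past the fold, 6 stayed past it in the same direction under every alternative run: *Fabp4* and *Pdk4* in columnar cells and *Fabp4*, *Lpl* and *Pdk4* in fibroblasts, and *Fabp5* in second stromal cells. For columnar *Fabp4*, 92.6% of the pup UMIs lay in 15 of 652 cells. The 42 measured ratios had 724 alternative values, and among those of the 18 ratios past the fold, 4 changed sign, 3 of them in columnar cells. Without acid pump cells, *Fabp3* (-0.68) and *Cd36* (-0.000856) in columnar cells did so, which leaves 3 of the 9 genes past the fold upward there. Without acid pump and hepatocyte gene cells together, chosen after seeing the data, *Fabp3* was -0.70 and 2 of the 9 were past the fold upward, since *Lpl* was at 0.90. The fourth was *Lpl* in immune cells, at -0.54 with cells thinned to 2000 UMIs. The counts of the 9 genes past the fold moved as follows. At a 1.5-fold threshold 1 was down in columnar cells, 2 were down in immune and in squamous cells, 2 up in squamous and in smooth muscle cells and 1 up in neural cells. At a 3-fold threshold 0 were down in endothelial and immune cells and 1 up in immune cells. With no minimum of UMIs 4 were up in endothelial cells, 2 up in second stromal, neural and squamous cells and 2 down in squamous cells. With a minimum of 20 UMIs 1 was up in endothelial and neural cells, 2 up in second stromal and 2 down in squamous cells. With a minimum of 200 UMIs 0 were up in immune, smooth muscle and squamous cells and 0 down in squamous cells. With the mean of per-cell CPM 1 was up and 0 down in immune cells, 1 up in neural and 2 up in smooth muscle cells. With 5 UMIs added 1 was up in neural and 2 in smooth muscle cells, and with median-centred ratios 1 in neural and 2 in squamous cells. With cells thinned to 2000 UMIs 0 were up or down in immune and squamous cells. In immune cells 0 were down with regions weighted equally, without the top 1% of cells, without the 1 highest cell per stage and without the stomach. There 2 were down with a library size free of mitochondrial, ribosomal protein and hemoglobin genes. Without the GE-SCJ 1 was up and 2 down in immune cells and 0 up and 2 down in squamous cells. Without the esophagus 2 were up in smooth muscle and 0 down in squamous cells. For the other lipid genes summed over 8 classes, the 53 up and 37 down became 25 and 20 with a minimum of 200 UMIs, 137 and 72 with no minimum, 99 and 83 at 1.5-fold, and 19 and 8 at 3-fold. The cause was not tested. Leaving out a region, weighting regions equally and thinning gave no value in classes with too few cells. No paired analysis was possible because each region and stage is 1 pooled sample. Genes with few UMIs are limited by depth, mainly in endothelial, second stromal and neural cells.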
